A study of Mus musculus with 15 samples.

Results

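Expression of 10 genes of fibroblast growth factor (Fgf) signalling was followed across 5 sorted populations of mouse mammary epithelial cells (MECs). The genes were the ligands Fgf1, Fgf2, Fgf7 and Fgf10, the receptors Fgfr1, Fgfr2 and Fgfr3, and the Sprouty genes Spry1, Spry2 and Spry4. They were chosen by name from the 18193 genes that had a probe set of their own on the array. Each was read from its brightest probe set, by mean log2 intensity over the 15 arrays. Of the 10 genes, 8 were bright enough to be tested, among 12143 tested genes in all, and Fgf2 and Fgf10 were not.

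RNA was amplified and hybridised to 15 Affymetrix Mouse Genome 430 2.0 arrays, 3 per population, all from C57BL/6 females. Lin- cells of wild-type adult virgins, in 3 cell suspensions, were sorted by surface proteins into a basal population enriched for mammary stem cells (MaSC), which was CD24+CD29hi, and 2 luminal populations, which were CD24hiCD29+. The luminal progenitors (LP) carried CD61 and the mature luminal cells (ML) did not. Lin-YFP+ cells were sorted from Wap-Cre;R26Y mice, from adults at midgestation for alveolar luminal cells (AL) and from adult virgins for the population labelled alveolar luminal stem/progenitor cells (ALP). In these mice, Cre under the promoter of the milk protein gene Wap switches on a YFP reporter, and a marked cell passes the mark to its descendants whatever it expresses later. AL and ALP therefore carried Wap-Cre and R26Y, whereas the other populations carried neither, and AL differed from all others in being pregnant tissue. How many animals gave the AL and ALP arrays is not given in the sources used here, so p-values measure the spread between these arrays, which may in part be technical.

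Fgfs are secreted proteins that bind receptor tyrosine kinases together with heparan sulfate on the cell surface. In the mammary gland, Fgf10 and Fgf7 are made by stromal cells and act on the IIIb splice form of Fgfr2 in the epithelium, which is needed for bud formation and ductal branching. Active receptors signal through Frs2, Ras and ERK, and Sprouty proteins, themselves induced by the pathway, dampen that signal.

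The promoters of Fgfr2 and Spry2 are shown because the 2 genes ran in opposite directions between LP and ML. Both windows are the 250 bases before the RefSeq start on GRCm38.p6, both genes lie on the minus strand, and CG dinucleotides are in capitals. The Fgfr2 window is chr7:130266809-130267058 and the Spry2 window is chr14:105896820-105897069.
Fgfr2: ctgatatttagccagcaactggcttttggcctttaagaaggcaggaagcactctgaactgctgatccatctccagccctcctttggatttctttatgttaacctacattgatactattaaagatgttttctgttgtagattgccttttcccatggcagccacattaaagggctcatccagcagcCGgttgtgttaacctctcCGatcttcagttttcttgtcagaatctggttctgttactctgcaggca
Spry2: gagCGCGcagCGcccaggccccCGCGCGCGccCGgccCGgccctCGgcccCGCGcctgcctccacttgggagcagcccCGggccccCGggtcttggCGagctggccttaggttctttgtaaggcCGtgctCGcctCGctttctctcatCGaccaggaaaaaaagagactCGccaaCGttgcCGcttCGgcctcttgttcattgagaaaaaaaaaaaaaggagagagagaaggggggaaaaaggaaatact
The Fgfr2 window held 2 CG dinucleotides and the Spry2 window 23, against a median of 6 over the 32851 windows used. These windows did not cover every chromosome. Windows were used for 7 of the 10 genes, and the Spry1 window held 23 CG dinucleotides, that of Fgf2 20, those of Fgf10 and Fgf7 8 and 6, and the 2 starts of Fgfr3 19 and 24. The RUNX core TGTGGT and CGGAAG, a form of the ETS site, were searched on both strands as exact letters. Neither was present in any of the 8 windows of these genes, whereas 14% of all windows held the first and 13.6% the second. The shorter ETS core GGAA was not counted, and it occurs in both printed windows. No array measured these windows, and the letters are given as description.

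Sorted populations were first set against markers of the cell types they could hold. All 8 basal markers, such as Krt5 and Acta2, exceeded the array median in each MaSC array, and their mean log2 intensity was 13.1 to 13.2 there against 6.65 to 7.38 in LP and ML. Luminal progenitor markers averaged 12.5 to 12.7 in LP against 10.3 to 10.8 in ML, hormone-sensing markers 12.6 to 12.8 in ML against 9.9 to 11.1 in LP, and milk protein genes 12.6 to 13.1 in AL against 5 to 10.2 elsewhere. Wap itself averaged 6059 in AL and 66.7 in ALP. In ALP, luminal progenitor markers averaged 12.5 to 12.6 and hormone-sensing markers 11.5 to 12.1. MaSC arrays held hormone-sensing markers at 10.1 to 11.8. All 8 luminal markers, such as Krt8, exceeded the array median in each MaSC array, at 11.8 to 12.5 against 12.9 to 13.05 in LP. AL also held basal markers, with a mean log2 of 10.5 to 10.9 and all 8 above the array median, and so did ALP, at 8.98 to 11.7 with 6 of the 8 above the median in all its arrays. The 14 fibroblast markers, such as Dpt and Col3a1, averaged 11 to 11.7 in LP, 10.7 to 11.2 in AL and 11.4 to 12.9 in ALP, but 9.04 to 9.41 in MaSC and 5.95 to 6.72 in ML. ALP replicate 3 stood apart, with leukocyte markers at 12.7 against 7.4 and 7.77 in the other ALP arrays, endothelial markers at 10.7 against 7.81 and 8.71, pericyte markers at 10.2 against 7.17 and 7.42, basal markers at 11.7 against 9.22 and 8.98, fibroblast markers at 12.9 against 11.4 and 11.5, and the highest array median (209.9, against 136.8 to 180.2). Each comparison with ALP was therefore also made without it.

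**Figure D1:**
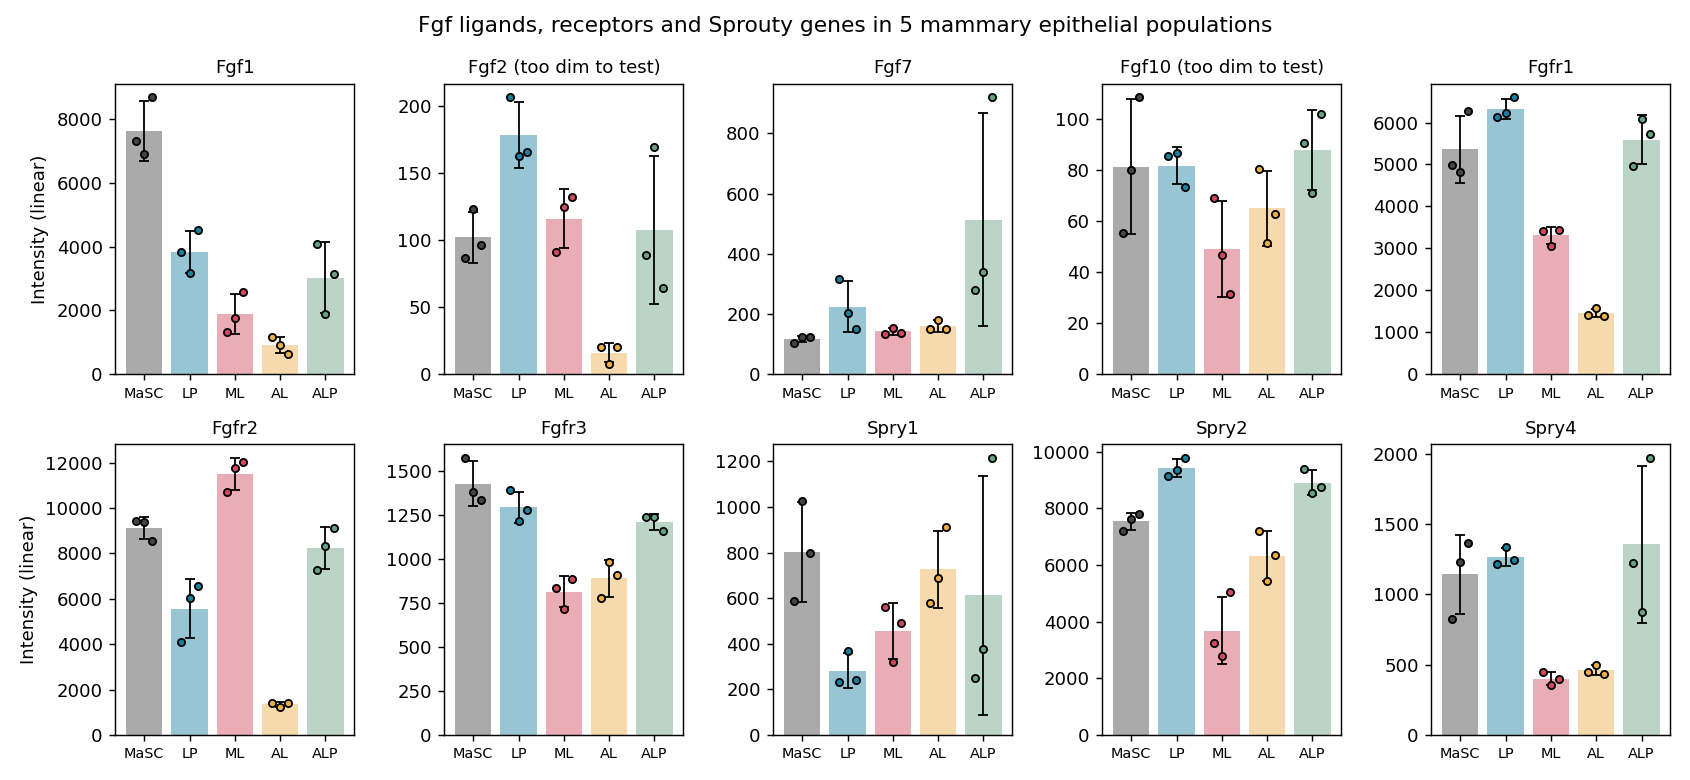
Intensity on a linear scale (vertical axes) of the 10 genes in the 5 populations (horizontal axes). Bars are means, points are the 3 arrays of a population and error bars are SD. Fgfr2 was lowest in AL and highest in ML, whereas Spry2 and Spry4 were high in LP and ALP and low in ML, and Fgf7 was highest in 1 ALP array.

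Among the ligands, Fgf1, which binds all Fgf receptors, was highest in MaSC and lowest in AL. Its intensity was 7308, 6894 and 8683 in MaSC, 3823, 3164 and 4512 in LP, 4071, 1875 and 3142 in ALP, 1327, 1752 and 2586 in ML, and 1152, 913 and 645 in AL. The MaSC arrays lay above all others and the AL arrays below all others, whereas the ALP range overlapped with those of LP and ML. Fgf1 was 8.64-fold lower in AL than in MaSC (log2 -3.11, SE 0.31, limma adjusted p = 8.98e-06) and 4.32-fold lower than in LP (log2 -2.11, adjusted p = 0.000268). AL was 3.28-fold below ALP (log2 -1.71, adjusted p = 0.00126) and 2.07-fold below ML (log2 -1.05, adjusted p = 0.0139). In a sorted population, fewer cells that express a gene and less RNA of it per cell cannot be told apart.

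Within the virgin gland, Fgf1 was 4.17-fold higher in MaSC than in ML (log2 2.06, adjusted p = 0.000211), 2.00-fold higher than in LP (log2 1.00, adjusted p = 0.0241), and LP exceeded ML 2.09-fold (log2 1.06, adjusted p = 0.015). It was 2.63-fold lower in ALP than in MaSC (log2 -1.40, adjusted p = 0.00511). ALP did not pass against LP (log2 -0.40, 95% interval -1.08 to 0.29) or ML (log2 0.67, -0.02 to 1.35), and against ML Fgf1 passed without ALP replicate 2 (log2 0.98, adjusted p = 0.0296). The smaller differences lost their call when certain single arrays were left out, at similar or smaller sizes. MaSC against LP did not pass without MaSC replicate 3, LP replicate 1 or LP replicate 2 (log2 0.90, 1.01 and 0.87, adjusted p = 0.0753, 0.0571 and 0.087), LP against ML without LP replicate 3 or ML replicate 1 (log2 0.94 and 0.83, adjusted p = 0.0564 and 0.065), and AL against ML without ML replicate 3 or AL replicate 3 (log2 -0.79 and -0.83, adjusted p = 0.0624 and 0.0636).

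The 3 Fgf1 probe sets differed among themselves. The second, at 926 to 1607 in MaSC and 946 to 1313 in LP, separated MaSC from ML (log2 1.96, adjusted p = 0.000901) and LP from ML (log2 1.78, adjusted p = 0.00213) but not MaSC from LP (log2 0.17, adjusted p = 0.75). The third and dimmest averaged 230.3 in MaSC, 211 in LP and 246 in ML, with overlapping arrays, and was lower in AL at 107. It was highest in ALP, at 382. Its order of ALP and MaSC was the reverse of that of the brightest (log2 0.78 higher in ALP, adjusted p = 0.0779). All 3 were lower in AL than in LP, by log2 2.11, 2.70 and 0.99 in order of brightness, and lower in AL than in ALP.

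Fgf2, a ligand found in basement membranes and stroma, exceeded the array median in 2 of the 15 arrays and was too dim for the test. Its intensity was 86.9, 123 and 96.1 in MaSC, 207, 163 and 166 in LP, 91.1, 125 and 132 in ML, 88.6, 170 and 63.9 in ALP, and 20.6, 7.52 and 20.3 in AL. The 3 AL arrays lay below all other arrays. When all 18193 genes were fitted with no filter on brightness, Fgf2 in AL lay 12.1-fold below LP (log2 -3.60, SE 0.41, adjusted p = 7.73e-05), and the differences from MaSC, ML and ALP were log2 -2.79, -2.97 and -2.75 (adjusted p = 0.000218, 0.000148 and 0.000537). At intensities this close to the background of an array, the size of a fold is uncertain.

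Fgf7, the keratinocyte growth factor of stromal cells, was highest in ALP. Its intensity was 279, 339 and 919 in ALP, 316, 204 and 150 in LP, 150, 181 and 148 in AL, 132, 155 and 138 in ML, and 104, 124 and 123 in MaSC. The ALP arrays lay above those of AL, ML and MaSC but overlapped with LP, and ALP replicate 3 was the highest of all 15 arrays. Fgf7 was 3.8-fold higher in ALP than in MaSC (log2 1.93, SE 0.37, adjusted p = 0.0024), 3.13-fold higher than in ML (log2 1.65, adjusted p = 0.0054) and 2.78-fold lower in AL than in ALP (log2 -1.48, adjusted p = 0.00858). Without ALP replicate 3 these were log2 1.40 (adjusted p = 0.00143), 1.12 (0.00459) and -0.95 (0.0109). ALP against LP did not pass (log2 1.06, adjusted p = 0.103), but did without ALP replicate 1 (log2 1.39, adjusted p = 0.0305). When only the arrays of the 2 populations compared were fitted, the differences of ALP from MaSC, ML and AL missed the threshold (adjusted p = 0.0551, 0.0545 and 0.0621, over all alternatives between 0.00044 and 0.125).

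Markers of other cells were set beside Fgf7. The lists of fibroblasts, endothelial cells, pericytes and leukocytes were highest in ALP replicate 3, as was Fgf7, but not all followed it elsewhere. Adipocyte markers were also highest there, at a mean log2 of 8.93 against 7.47 and 7.70 in the other ALP arrays. Of these, Cidec and Retn lay below the array median in each ALP array. Pericyte markers had a mean log2 of 7.06 to 7.30 in MaSC, where Fgf7 was lowest, and 4.59 to 5.24 in LP, and leukocyte markers 5.59 to 6.19 in LP and 8.05 to 8.76 in AL, where the mean of Fgf7 was lower than in LP. Fibroblast markers were 9.04 to 9.41 in MaSC and 5.95 to 6.72 in ML. The mean of Fgf7 was 117 in MaSC and 142 in ML, a difference that did not pass. Over the 15 arrays the genes most like Fgf7 in log2 intensity were Kdr, an endothelial receptor (r = 0.946), Adcy4, an adenylyl cyclase (r = 0.941), and Sfrp4, a secreted Wnt inhibitor (r = 0.937). Without ALP replicate 3 these were r = 0.88, 0.845 and 0.868. Kdr was 271, 417 and 1689 in ALP and averaged 187 in AL, 165 in LP, 77 in ML and 59.8 in MaSC. Among the other endothelial markers, Pecam1 had the order of Kdr, averaging 429.5 in ALP, 81.9 in AL and 14 in MaSC. Cdh5, Tie1 and Emcn were also highest in ALP and next highest in AL, and Tek was highest in ALP and next highest in LP. Outside ALP, Pecam1, Cdh5 and Tie1 lay below the array median in every array, as did Kdr in MaSC and ML. Their order there is one of dim values. Eng and Vwf were ordered differently. Eng averaged 1135 in ML, 1004 in ALP and 157 in AL, and Vwf 2094 in ALP, 1653 in ML and 147 in LP. These are descriptions over arrays that share their populations. The part of fibroblasts, endothelial cells, pericytes, leukocytes or adipocytes in the Fgf7 values was not tested.

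**Figure D2:**
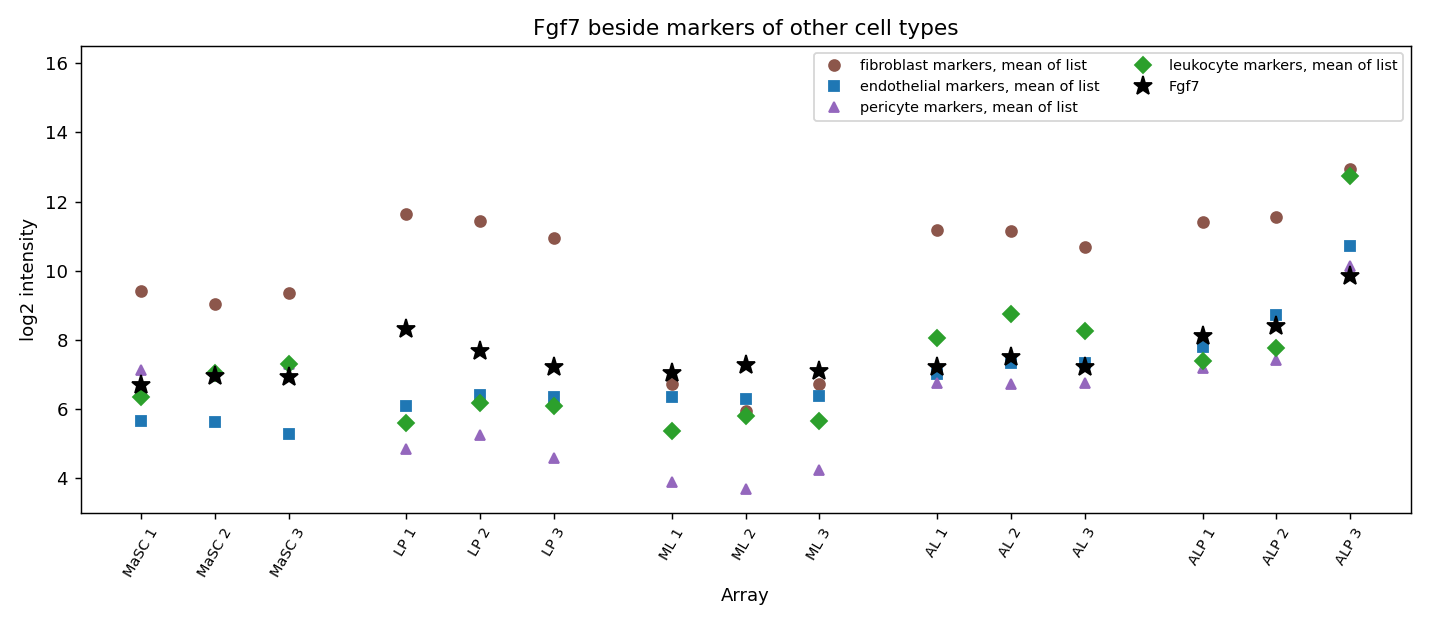
Log2 intensity (vertical axis) in each of the 15 arrays (horizontal axis) of Fgf7 (stars) and the mean of the marker lists of fibroblasts, endothelial cells, pericytes and leukocytes (other symbols). In ALP replicate 3 the 4 lists and Fgf7 all reached their highest values, and fibroblast markers were high in LP and AL as well as in ALP.

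Fgf10, the stromal ligand of Fgfr2, exceeded the array median in none of the 15 arrays. Its intensity ran from 31.6 in ML replicate 3 to 109 in MaSC replicate 3, and the means were 81.4 in MaSC, 81.8 in LP, 49.1 in ML, 65 in AL and 87.9 in ALP. In the fit with no filter, ML was lower than ALP (log2 0.90 higher in ALP, adjusted p = 0.0488) and none of the other 9 comparisons passed (adjusted p = 0.0593 to 0.92).

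Among the receptors, Fgfr1 and Fgfr2 were lower in AL than in each of the other populations. Fgfr2, the receptor of Fgf7 and Fgf10 in epithelium, had intensities of 1407, 1221 and 1421 in AL against 4074, 6055 and 6557 in LP, 7289, 8326 and 9131 in ALP, 9433, 9389 and 8543 in MaSC and 10711, 11770 and 12023 in ML. All 3 AL arrays lay below every other array. Among the virgin populations, LP was lowest and ML highest, with no overlap of these 2, while ALP and MaSC overlapped. In Fgfr2, AL lay 8.53-fold below ML (log2 -3.09, SE 0.16, adjusted p = 1.01e-07), 6.77-fold below MaSC (log2 -2.76, adjusted p = 2.23e-07), 6.1-fold below ALP (log2 -2.61, adjusted p = 9.69e-07) and 4.05-fold below LP (log2 -2.02, adjusted p = 3.52e-06). These 4 differences passed in each of their 17 alternatives.

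Among virgin cells, Fgfr2 was 2.11-fold lower in LP than in ML (log2 -1.08, adjusted p = 0.000231) and 1.67-fold higher in MaSC than in LP (log2 0.74, adjusted p = 0.00316). The difference of MaSC from ML did not pass (log2 -0.33, adjusted p = 0.0857), although all MaSC arrays lay below all ML arrays and the difference passed in 5 of 18 alternatives (adjusted p = 0.00533 to 0.198). ALP was 1.51-fold higher than LP (log2 0.59, adjusted p = 0.0437) and 1.4-fold lower than ML (log2 -0.48, adjusted p = 0.0313). Both were lost easily. ALP against LP did not pass without LP replicate 1, LP replicate 2, ALP replicate 2 or ALP replicate 3 (log2 0.38, 0.67, 0.58 and 0.52, adjusted p = 0.101, 0.0799, 0.102 and 0.125). ALP against ML did not pass without ML replicate 2, ML replicate 3, ALP replicate 1 or ALP replicate 2 (log2 -0.47, -0.45, -0.40 and -0.49, adjusted p = 0.0841, 0.0827, 0.111 and 0.0634).

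The second Fgfr2 probe set showed the same order of population means over a wider range. This probe set, at 1336, 1785 and 1444 in ML, 636, 677 and 600 in MaSC, 269, 624 and 605 in ALP, 77.5, 209 and 202 in LP and 62.2, 68 and 80.4 in AL, was 21.6-fold lower in AL (log2 -4.44, adjusted p = 2.15e-06) and 10.2-fold lower in LP than in ML (log2 -3.35, adjusted p = 3.95e-05). Here the lowest LP array overlapped with AL. It also placed MaSC below ML (log2 -1.24, adjusted p = 0.0136) and LP below ALP (log2 1.65 higher in ALP, adjusted p = 0.0259). The third probe set exceeded the array median in the 3 ML arrays and in no other, so it entered the test through the population where it was highest, and its values are given as description. They were 155, 292 and 217 in ML, 78.4, 148 and 83.1 in MaSC, 52.1, 172 and 87.8 in ALP, 29.4, 24.8 and 33.1 in LP, and 8.21, 17.1 and 8.35 in AL. The brightest probe sets of Fgfr1 and Fgfr2 carry the suffix s_at, which marks probes shared by several transcripts, and which splice form a probe set reads was not analysed here.

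Fgfr1, the receptor more typical of mesenchymal and basal cells, was also lowest in AL. Its intensity was 1400, 1569 and 1398 in AL, 3410, 3063 and 3446 in ML, 4987, 4811 and 6279 in MaSC, 4952, 6091 and 5729 in ALP, and 6137, 6230 and 6598 in LP. AL lay below ML, and ML below the other 3 populations, with no overlap. In Fgfr1, AL lay 4.35-fold below LP (log2 -2.12, SE 0.11, adjusted p = 4.54e-07), 3.83-fold below ALP (log2 -1.94, adjusted p = 9.42e-07), 3.66-fold below MaSC (log2 -1.87, adjusted p = 3.19e-07) and 2.27-fold below ML (log2 -1.18, adjusted p = 6.35e-06). These 4 differences also passed in each of their 17 alternatives. In the same AL arrays all 14 fibroblast markers exceeded the array median.

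ML was lower in Fgfr1 than LP (log2 0.94 higher in LP, adjusted p = 7.16e-05), MaSC (log2 0.69 higher in MaSC, adjusted p = 0.000383) and ALP (log2 0.75 higher in ALP, adjusted p = 0.000414). ALP did not pass against MaSC (log2 0.07, 95% interval -0.18 to 0.31) or LP (log2 -0.18, -0.43 to 0.07). MaSC against LP missed the threshold (log2 -0.25, adjusted p = 0.105) and passed without MaSC replicate 3 (log2 -0.37, adjusted p = 0.0181). The other two Fgfr1 probe sets were lower in AL than in each of the other populations as well, by log2 1.03 to 1.62 and 1.31 to 2.27. The second did not separate MaSC from ML (log2 0.27, adjusted p = 0.069).

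Fgfr3 spanned a narrower range and split the populations into a higher and a lower set. Its intensity was 1571, 1380 and 1331 in MaSC, 1389, 1217 and 1275 in LP, with 1237, 1236 and 1159 in ALP, against 776, 983 and 910 in AL and 835, 715 and 887 in ML. All arrays of the first 3 populations lay above all arrays of AL and ML, which overlapped. Fgfr3 was 1.76-fold higher in MaSC than in ML (log2 0.82, SE 0.11, adjusted p = 0.000108), 1.6-fold higher in LP than in ML (log2 0.67, adjusted p = 0.000523) and 1.5-fold higher in ALP than in ML (log2 0.58, adjusted p = 0.00204). It was 1.61-fold lower in AL than in MaSC (log2 -0.68, adjusted p = 0.00029), 1.46-fold lower than in LP (log2 -0.54, adjusted p = 0.00219), and lower than in ALP 1.37-fold (log2 -0.45, adjusted p = 0.0076). AL against ML did not pass (log2 0.13, 95% interval -0.11 to 0.37). With each array centred on its own median, which shifts the median of all genes by log2 -0.411 in ALP against ML and 0.273 in AL against ALP, the differences of ALP from ML and from AL no longer passed (log2 0.17 and -0.18, adjusted p = 0.279 and 0.286).

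**Figure D3:**
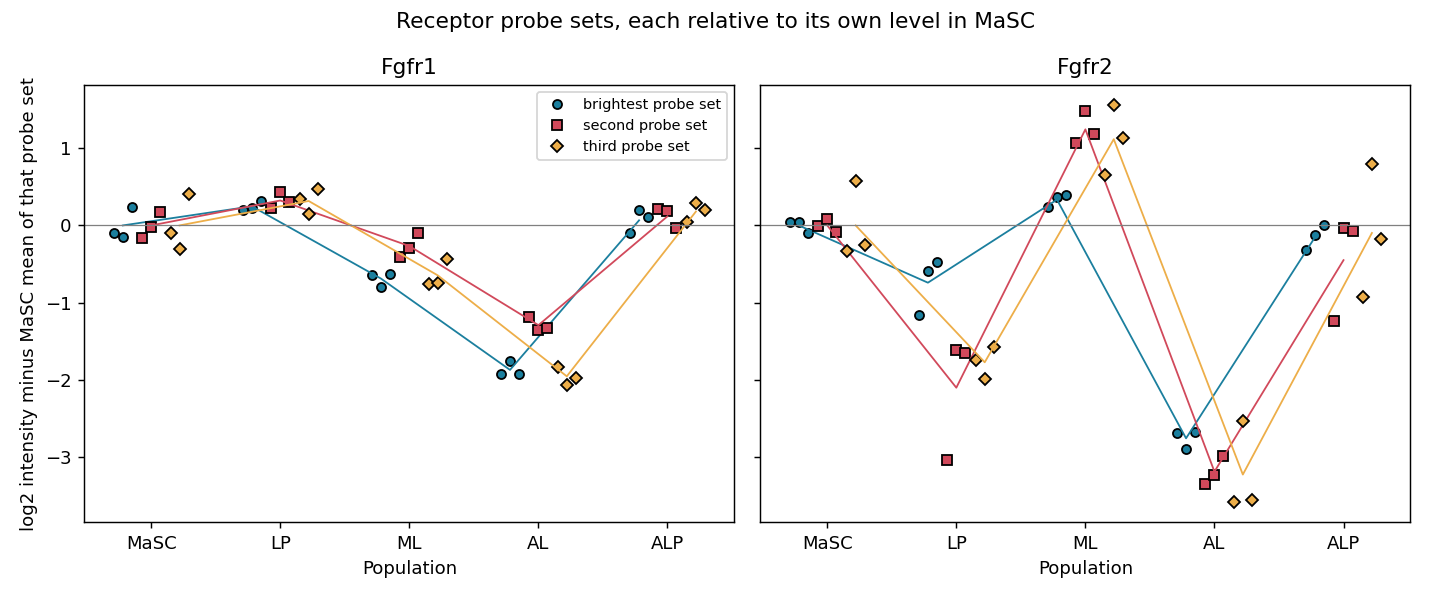
Log2 intensity minus the MaSC mean of the same probe set (vertical axes) for each tested probe set of Fgfr1 and Fgfr2 in the 5 populations (horizontal axes). Points are arrays and lines join the population means. All Fgfr1 and Fgfr2 probe sets were lowest in AL, the second Fgfr2 probe set spread LP and ML further apart than the brightest, and the dimmest Fgfr2 probe set exceeded the array median in ML alone.

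The 3 Sprouty genes differed from each other in their order of populations. Spry2, a feedback inhibitor of receptor tyrosine kinase signalling, had intensities of 9160, 9357 and 9777 in LP, 9410, 8555 and 8766 in ALP, 7208, 7627 and 7788 in MaSC, 7190, 5435 and 6359 in AL, and 3238, 2774 and 5034 in ML. ML lay below all other populations without overlap, and MaSC below LP and ALP. However, MaSC against LP (log2 -0.32, adjusted p = 0.171) and ALP against MaSC (log2 0.24, adjusted p = 0.299) did not pass. For Spry2, LP exceeded ML 2.65-fold (log2 1.40, SE 0.18, adjusted p = 9.14e-05), ALP exceeded it 2.5-fold (log2 1.32, adjusted p = 0.000183), MaSC 2.12-fold (log2 1.08, adjusted p = 0.000366) and AL 1.76-fold (log2 0.82, adjusted p = 0.00218). Its order of LP and ML was the reverse of that of Fgfr2.

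In Spry2, AL lay 1.5-fold below LP (log2 -0.58, adjusted p = 0.0185) and 1.42-fold below ALP (log2 -0.50, adjusted p = 0.0407). AL against MaSC did not pass (log2 -0.26, adjusted p = 0.223). AL against LP did not pass without LP replicate 3 or AL replicate 2 (log2 -0.56 and -0.48, adjusted p = 0.0558 and 0.0763). AL against ALP was lost in 9 of 17 alternatives (adjusted p = 0.00873 to 0.366), among them those without AL replicate 2 or 3 (log2 -0.40 and -0.51, adjusted p = 0.147 and 0.0862) and without ALP replicate 1, 2 or 3 (log2 -0.46, -0.53 and -0.51, adjusted p = 0.101, 0.0675 and 0.0671).

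Spry4, another member of this inhibitor family, split the populations as Fgfr3 did. Its intensity was 828, 1234 and 1369 in MaSC, 1216, 1339 and 1248 in LP, with 1226, 874 and 1970 in ALP, against 450, 498 and 431 in AL and 445, 358 and 399 in ML. No AL or ML array reached the lowest array of the other populations. For Spry4, LP exceeded ML 3.17-fold (log2 1.67, SE 0.25, adjusted p = 0.000297), ALP exceeded it 3.21-fold (log2 1.68, adjusted p = 0.000398) and MaSC 2.8-fold (log2 1.49, adjusted p = 0.000459). It was 2.8-fold lower in AL than in ALP (log2 -1.48, adjusted p = 0.000827), 2.76-fold lower than in LP (log2 -1.47, adjusted p = 0.000738), and lower than in MaSC 2.44-fold (log2 -1.29, adjusted p = 0.00104). Without ALP replicate 3 the difference of AL from ALP was log2 -1.17 (adjusted p = 0.0012). Its second probe set gave log2 -1.38 for AL against LP and 1.77 for LP against ML.

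Spry1, a further Sprouty gene, had the largest SE of the 8 tested genes. Its intensity was 589, 1027 and 796 in MaSC, 579, 686 and 912 in AL, 559, 321 and 490 in ML, 233, 369 and 240 in LP, and 248, 376 and 1214 in ALP. MaSC and AL lay above LP without overlap, and ALP replicate 3 was the highest array of all. MaSC exceeded LP 2.86-fold (log2 1.52, SE 0.48, adjusted p = 0.0257) and AL exceeded LP 2.6-fold (log2 1.38, adjusted p = 0.0341), and no other comparison of Spry1 passed. The first did not pass without MaSC replicate 2 or 3 or LP replicate 1 or 3 (log2 1.32, 1.504, 1.40 and 1.42, adjusted p = 0.0861, 0.061, 0.0775 and 0.0753), nor the second without LP replicate 1 or 3 or AL replicate 2 or 3 (log2 1.26, 1.28, 1.41 and 1.20, adjusted p = 0.0951, 0.0937, 0.0716 and 0.109). Without ALP replicate 3, Spry1 was higher in AL than in ALP (log2 1.22, adjusted p = 0.0125, against log2 0.56 and adjusted p = 0.379 with it) and lower in ALP than in MaSC (log2 -1.36, adjusted p = 0.00815, against log2 -0.70 and adjusted p = 0.266).

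Counted by comparison, differences among these genes were set beside the share of all tested genes that passed at an adjusted p under 0.05. AL differed from ALP in 7 of the 8 tested genes, where 39.9% of all genes passed. All 7 were lower in AL, as were 21.2% of all genes. AL differed from LP in 7 (45.5% of all genes), with Spry1 higher (21.3%) and the other 6 lower (24.2%). AL differed from MaSC in 5 (59.4%), all lower (28.1% of all genes lower and 31.3% higher), and from ML in 4 (53.5%), with Spry2 higher (28.7%) and Fgf1, Fgfr1 and Fgfr2 lower (24.8%). The median difference of the 8 genes was log2 -1.48 for AL against ALP and -1.02 against LP, where the medians of all genes were -0.02 and -0.03. It was -0.99 for AL against MaSC but 0.15 against ML, where the medians of all genes were 0.05 and 0.03. These comparisons share the AL arrays.

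Among virgin populations, 6 of the 8 passed between LP and ML (49.0% of all genes), 5 of them higher in LP (27.3%), and Fgfr2 lower (21.7%). Between MaSC and ML 5 passed (59.5%), all higher in MaSC (27.1% of all genes higher and 32.4% lower). Between MaSC and LP 3 passed (38.9%), namely Fgf1, Fgfr2 and Spry1, all higher in MaSC (15.8% of all genes higher and 23.1% lower). ALP differed from ML in 6 (36.7%), with Fgf7, Fgfr1, Fgfr3, Spry2 and Spry4 higher (21.1%) and Fgfr2 lower (15.6%). It differed from MaSC in 2 (38.4%), with Fgf7 higher (21.7%) and Fgf1 lower (16.7%), and from LP in 1 (7.54%), with Fgfr2 higher (3.58% of all genes higher and 3.95% lower). With 8 genes, the shares called in either direction for MaSC against LP, MaSC against ML, AL against MaSC and AL against ML lay near those of all genes.

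The split of all genes by direction moved with the scaling of the arrays. Calls higher in the population named first made up 46.9% of all calls in AL against ALP, 57.5% in ALP against ML, 55.7% in LP against ML and 47.5% in ALP against LP. With quantile normalisation these shares were 59.9%, 37.1%, 45.6% and 37.2%, and with median centring 73.9%, 18.7%, 30.3% and 28.4%. Median centring also moved MaSC against ML from 45.6% to 27.9%, AL against LP from 46.9% to 60.1%, AL against ML from 53.7% to 41% and ALP against MaSC from 56.6% to 37.3%. The direction of no called member changed under either scaling. With median centring, Fgfr3 and Spry2 in AL against ALP (log2 -0.18 and -0.23, adjusted p = 0.286 and 0.366), Spry2 in AL against LP (adjusted p = 0.0728), Fgf1 in LP against ML (adjusted p = 0.0528), Fgfr2 in ALP against LP (adjusted p = 0.0745) and Fgfr3 in ALP against ML (adjusted p = 0.279) did not pass. With quantile normalisation, Fgfr3 and Spry2 in AL against ALP did not pass (adjusted p = 0.0636 and 0.0587).

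**Figure D4:**
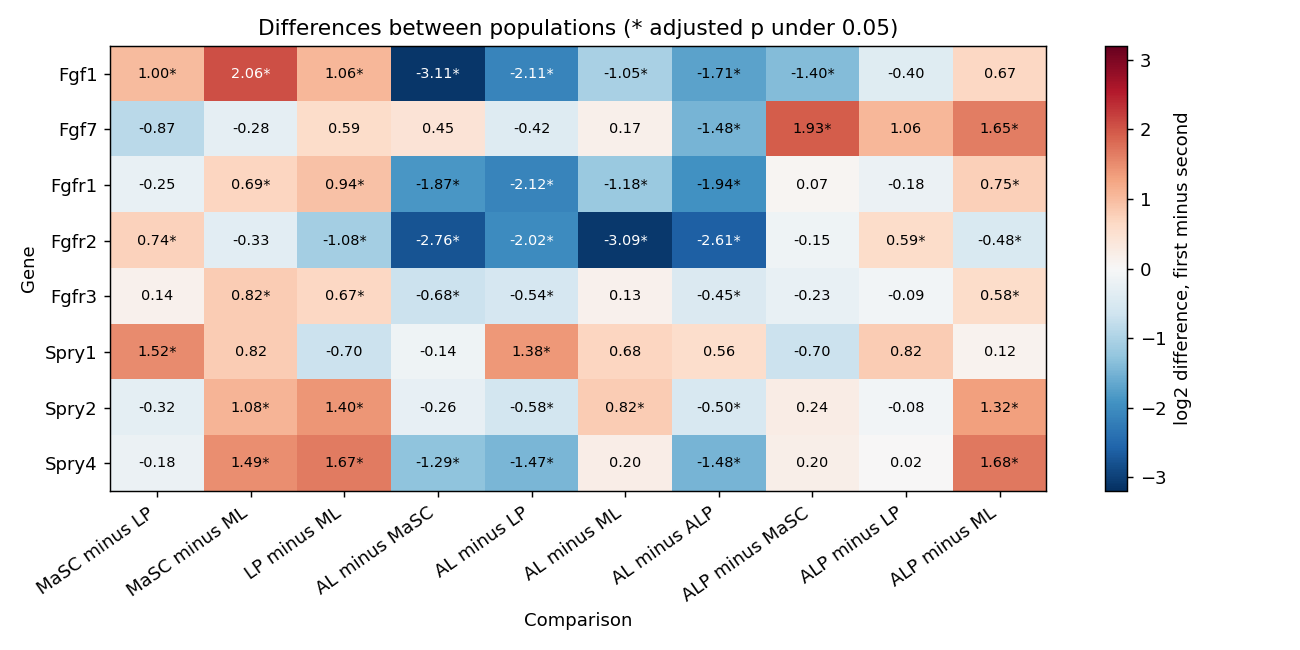
Fitted log2 differences of the 8 tested genes (rows) in the 10 pairwise comparisons of populations (columns), each the first population minus the second, with an asterisk where the adjusted p was under 0.05. Called differences of AL are negative, apart from Spry1 against LP and Spry2 against ML, and the column of ALP minus LP holds 1 call.

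The genes most like each member over the 15 arrays were listed as description, since arrays of a population share their tissue. Fgfr2 was most like Gcnt2, a glycosyltransferase, Fgg, the gamma chain of fibrinogen, and Il13ra1, an interleukin receptor chain (r = 0.988, 0.988 and 0.986). Fgg averaged 12440 in ML, 8960 in MaSC, 8749 in ALP, 5292 in LP and 516 in AL. Fgfr1 was most like Papln, a matrix protein, Etnk1, an ethanolamine kinase, and Acot7, a thioesterase (r = 0.972, 0.97 and 0.97), Fgfr3 most like Herpud1, Pgm5 and Chil1 (r = 0.969, 0.966 and 0.952), and Fgf1 most like Map3k20, Rps6ka3 and Dnajc27 (r = 0.968, 0.968 and 0.966).

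For the Sprouty genes, Spry2 was most like Col25a1, a transmembrane collagen, Rhoj, a small GTPase, and Ephx1, an epoxide hydrolase (r = 0.978, 0.976 and 0.968). Spry4 was most like Dennd5b, Maob and Sdc3 (r = 0.974, 0.952 and 0.949), of which Sdc3 is a heparan sulfate proteoglycan. Sdc3 averaged 1297 in LP, 1196 in MaSC, 1144 in ALP, 172 in ML and 173 in AL. The nearest genes to Spry1 were further away, at r = 0.876 for Dexi and Spats2 and 0.875 for Mex3b. Among the members, Fgfr3 and Spry4 had the highest correlation (r = 0.817), followed by Fgf1 and Fgfr1 (r = 0.811), whereas Fgfr2 and Spry2 had r = -0.135.

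Other genes of the pathway were followed by fixed lists. Of 18 other Fgf ligands, 3 were bright enough to test, Fgf13, Fgf11 and Fgf3. Fgf13, which acts inside the cell rather than as a secreted ligand, had intensities of 2634, 2987 and 3949 in ML, 1073, 1327 and 1434 in ALP, 1224, 631 and 380 in MaSC, 214, 249 and 578 in LP, with the lowest in AL at 124, 132 and 178. Its level in AL was 22-fold below that in ML (log2 -4.46, adjusted p = 5.66e-06) and 10-fold lower in LP than in ML (log2 -3.33, adjusted p = 9.15e-05), an order of LP and ML shared with Fgfr2. Fgf11, of the same intracellular group, averaged 459.5 in ML, 196 in ALP, 142 in MaSC, 115 in LP and 62.6 in AL. Fgf3, a secreted ligand, averaged 188 to 237 in the 5 populations, and none of the comparisons among MaSC, LP, ML and AL, or of AL with ALP, passed (adjusted p = 0.0568 to 0.735).

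Of 12 other receptors and co-receptors, 8 were tested. Against ML, 4 were higher in LP and none lower, beside 27.3% and 21.7% of all tested genes, and 5 were higher in MaSC and 1 lower, beside 27.1% and 32.4%. Ncam1, an adhesion molecule that can bind Fgf receptors, averaged 5093 in LP, 4030 in ALP, 3273 in AL and 2677 in MaSC against 299 in ML (LP against ML log2 4.10, adjusted p = 4.95e-08). Flrt3, a membrane partner of Fgf receptors, averaged 3105 in LP, 3077 in AL, 2670 in MaSC, 2397 in ALP and 342 in ML (LP against ML log2 3.22, adjusted p = 1.34e-06). Fgfbp1, a carrier that releases stored Fgf, was lowest in MaSC at 288 and highest in AL at 1516 (log2 2.48, adjusted p = 0.000617). Flrt2, of the same family as Flrt3, averaged 1298 in MaSC and 42.5 in ML (log2 5.05, adjusted p = 6.79e-05), and was 3318 in ALP replicate 3 against 472 and 640 in the other ALP arrays.

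Of 25 heparan sulfate proteoglycans and their enzymes, 23 were tested. Against MaSC, AL had 15 of these lower and 1 higher, beside 28.1% and 31.3% of all tested genes, with a median of log2 -0.65 against 0.05 over all genes. MaSC exceeded ML in 16 and lay below it in 1, beside 27.1% and 32.4% of all genes. Sulf1, which trims the sulfate groups that Fgf and its receptor bind, averaged 7141 in MaSC, 2447 in LP, 671 in AL and 261 in ML, and was 10.6-fold lower in AL than in MaSC (log2 -3.41, adjusted p = 3.04e-05). In ALP, Sulf1 was 5749 in replicate 3 against 1815 and 2215 in the other arrays. Hs6st2, a sulfotransferase that exceeded the array median in MaSC alone, averaged 749 in MaSC, 85.9 in AL, 18 in ML and 13 in LP, and was 191 in ALP replicate 3 against 15.4 and 13.9 in the other ALP arrays. Hspg2, the basement membrane proteoglycan perlecan, averaged 3615 in MaSC and 212 in ML (log2 4.12, adjusted p = 1.68e-05). Extl1, a glycosyltransferase of heparan sulfate, ran the other way, at 936 in AL against 68.6 in MaSC (log2 3.70, adjusted p = 5.29e-06). Without ALP replicate 3, 7 of the 23 were lower and 3 higher in AL than in ALP, in place of 10 and 2, beside 21.2% and 18.7% of all genes with it.

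Of 23 signal transducers, 17 had a probe set of their own and were tested, with a median of log2 -0.27 for AL against LP beside -0.03 over all genes. In AL, 9 were lower and none higher than in LP, beside 24.2% and 21.3% of all tested genes, and 9 were lower and 2 higher than in MaSC, beside 28.1% and 31.3%. Map2k1, the kinase that activates ERK, was 1.62-fold lower in AL than in MaSC (log2 -0.69, adjusted p = 2.67e-05), with means of 3028 and 4902. Braf, the kinase before it, lay 1.68-fold below LP in AL (log2 -0.75, adjusted p = 0.000759). The adaptor Gab2 averaged 1166 in AL, 1073 in ALP, 1042 in LP and 453 in ML but 175 in MaSC (AL against MaSC log2 3.11, adjusted p = 0.000149), and the ubiquitin ligase Cblb was highest in MaSC at 4811 and averaged 1634 in AL (log2 -1.56, adjusted p = 0.00072).

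Of 12 further feedback inhibitors of the ERK pathway, 11 were tested. Between LP and ML, 4 were higher and 6 lower in LP, beside 27.3% and 21.7% of all tested genes. Dusp7, an ERK phosphatase, followed the order of Fgfr2 in part, with means of 8433 in MaSC, 6401 in ML, 4122 in LP, 4051 in ALP and 1935 in AL (AL against MaSC log2 -2.13, adjusted p = 8.05e-08). Dusp4, a nuclear ERK phosphatase, averaged 6131 in ML, 4024 in AL, 2727 in ALP, 1997 in MaSC and 1406 in LP (LP against ML log2 -2.15, adjusted p = 5.59e-05). Il17rd (Sef), an inhibitor at the membrane, averaged 513 in ML and 390 in MaSC against 103 in LP and 127 in AL (LP against ML log2 -2.34, adjusted p = 0.00072). Dusp9 was highest in MaSC, at 1368 against 105 in LP (log2 3.67, adjusted p = 7.97e-06). Of the 2 inhibitors higher in ALP than in LP, none passed without ALP replicate 3.

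Of 12 transcription factors and other targets of the ERK pathway, 11 were tested, with 5 lower and none higher in AL than in LP, beside 24.2% and 21.3% of all tested genes. Against MaSC, 4 were lower and 4 higher in AL, beside 28.1% and 31.3%. Against ML, 2 were lower and 3 higher in AL, beside 24.8% and 28.7%, and against ALP 4 and 1, beside 21.2% and 18.7%. Etv4, an ETS factor induced by Fgf in many tissues, had intensities of 88, 65.7 and 84.4 in AL and 172, 222 and 177 in LP, against 488, 623 and 867 in MaSC, 1002, 662 and 382 in ML, and 202, 332 and 334 in ALP. AL lay below all other arrays, 8.14-fold lower than MaSC (log2 -3.03, adjusted p = 1.6e-05) and 8.04-fold lower than ML (log2 -3.01, adjusted p = 1.63e-05). LP was 3.35-fold lower than ML (log2 -1.74, adjusted p = 0.00122). By population means, Etv4 was lowest in AL and next lowest in LP, as Fgfr2 was, but the Etv4 arrays of LP and ALP overlapped and their difference did not pass (log2 0.58 higher in ALP, adjusted p = 0.294).

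Fosl1, a component of AP-1, instead averaged 9891 in LP and 9239 in MaSC against 3709 in AL and 2942 in ML (LP against ML log2 1.76, adjusted p = 6.02e-05). Etv5, the relative of Etv4, was highest in MaSC at 2128 and averaged 849 in AL (log2 -1.33, adjusted p = 0.002). Elk3, another ETS factor, averaged 2387 in ML, 2272 in MaSC, 1043 in LP and 1035 in AL (LP against ML log2 -1.20, adjusted p = 0.00263). Between ALP and LP, 1 of the 11 passed, beside 7.54% of all genes, and none without ALP replicate 3.

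**Figure D5:**
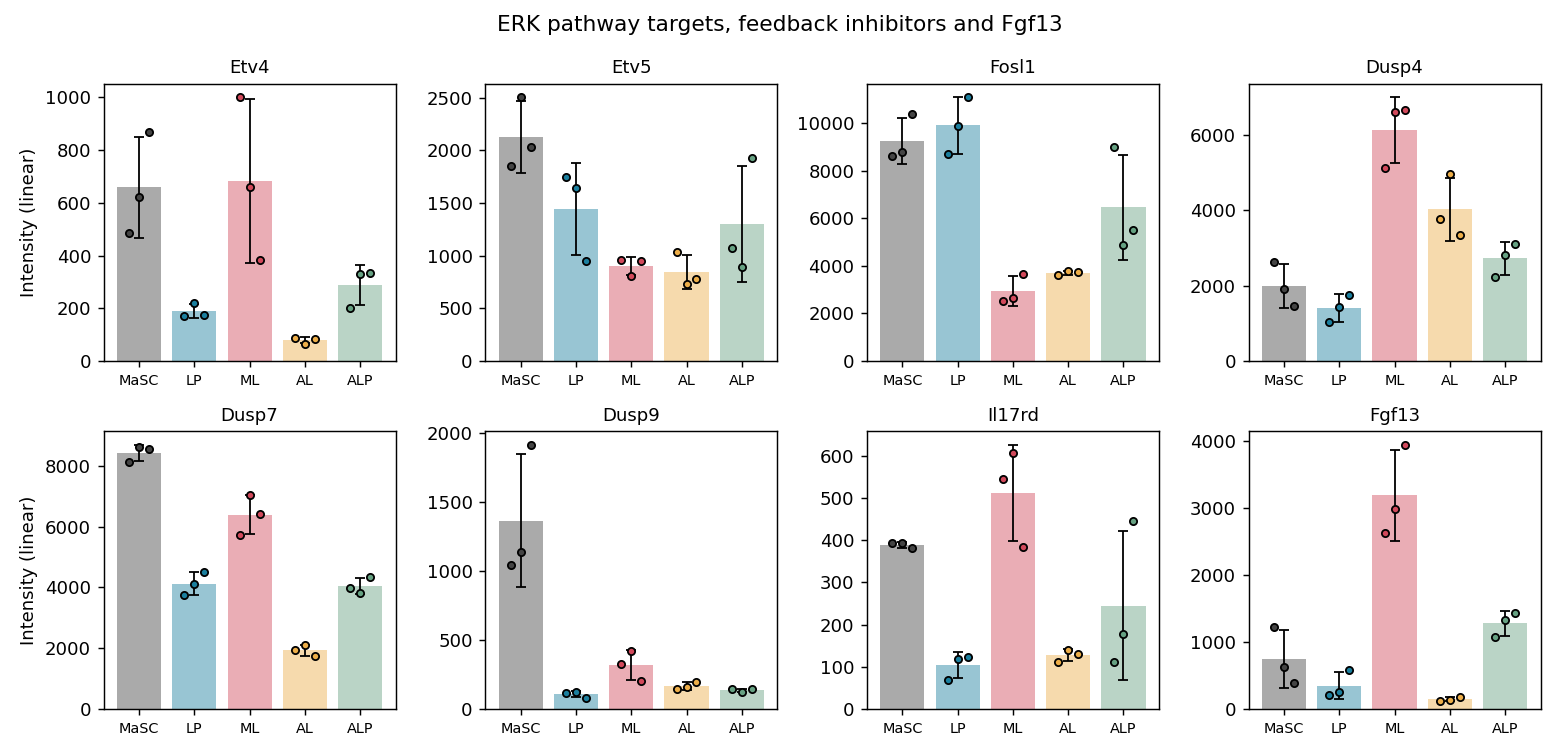
Intensity on a linear scale (vertical axes) of ERK pathway targets (Etv4, Etv5, Fosl1), feedback inhibitors (Dusp4, Dusp7, Dusp9, Il17rd) and Fgf13 in the 5 populations (horizontal axes). Bars are means, points are the 3 arrays and error bars are SD. Etv4, Il17rd and Fgf13 were low in LP and AL and high in ML, whereas Fosl1 was high in LP and low in ML.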

How the data were processed

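Mouse Genome 430 2.0 arrays were hybridised with RNA amplified by the NuGEN Ovation V2 system. The authors normalised all arrays with dChip and deposited 1 intensity per probe set and array on a linear scale. The version of dChip, its expression model and its baseline array are each not given in the sources used here. The table held 45101 probe sets, of which 64 were controls, 34945 carried exactly 1 gene symbol and 932 carried several, and 659 values were 0. Array medians ran from 136.8 to 209.9, and the number of arrays, 3 per population, limits the precision. All 15 columns were mapped by sample, and 0 were left unmapped.

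Intensities under 1 were set to 1 and log2 was taken. Testing was limited to the 22143 single-symbol probe sets that exceeded their array's median in at least 3 of 15 arrays. Each gene was represented by the brightest of these, leaving 12143 genes. All 15 arrays entered a linear model with a mean for each population (limma 3.58.1, R 4.3.3, functions lmFit and eBayes, 10 residual degrees of freedom), giving 10 pairwise comparisons with two-sided tests. P-values were adjusted by the method of Benjamini and Hochberg over all tested genes, and a call needed an adjusted p under 0.05. Folds are antilogs of fitted log2 differences, and SE and 95% intervals are on the log2 scale. The fit was tested on simulated data.

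The members, lists and markers were chosen with earlier results of these data known. Named pathway genes were up to 4 per list with the widest range of population means, and similar genes were the 3 with the highest Pearson r over 15 arrays, skipping symbols without a proper name. Alternatives were 16 added before log2, quantile normalisation, centring on array medians, no filter, a filter of 8 arrays, the next brightest probe set, replicate number as a block (over all arrays, and over those of MaSC, LP and ML), only the populations compared, array weights, the methods' test, and leaving out each array. Pathway counts and correlations without ALP replicate 3 were chosen after seeing the data. Scan dates were not used here, and the ALP arrays were deposited under later sample numbers than the others, so a batch of ALP and that population cannot be told apart. Promoter windows came from RefSeq on GRCm38.p6. Protein sequences and the sequences of Fgf1, Fgfr1 and Spry4 promoters were not used here.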

Additional observations from a re-analysis of the deposited data

How the results depend on the processing

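Over 80 results, 1384 alternative values were computed for single genes, and 1270 kept their direction and side of the threshold. Of the 796 values for the 46 called results, 66 missed the threshold and 0 changed direction. The number of the 8 genes called moved by over 1.5 times in 6 comparisons. For MaSC against LP it was 5 with array weights in place of 3. For AL against ML and AL against ALP the methods' test with Benjamini-Hochberg adjustment called 2 in place of 4 and 7, and for ALP against ML 2 in place of 6. For ALP against MaSC it was 4 with array weights, 1 with only the arrays of these populations, 4 by the methods' test unadjusted and 0 after adjustment, in place of 2. For ALP against LP it was 0 with median centring, no filter, the replicate block, only these populations and the methods' test, both unadjusted and adjusted, and 4 with array weights, in place of 1. The cause was not tested. Leaving out each array in turn gave 1 to 3 calls for MaSC against LP, 5 for MaSC against ML and AL against MaSC, 5 to 6 for LP against ML and ALP against ML, 5 to 7 for AL against LP, 3 to 4 for AL against ML, 6 to 7 for AL against ALP, 2 to 3 for ALP against MaSC and 0 to 2 for ALP against LP.

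Among these alternatives, direction changed only in results that were not called. The third Fgf1 probe set was not among them, and it reversed called results without passing. It gave log2 -0.18 for MaSC against ML, -0.24 for LP against ML and 0.78 for ALP against MaSC (adjusted p = 0.658, 0.572 and 0.0779). Median centring gave log2 -0.007963 for Fgfr3 in AL against ML and -0.1129 for Fgfr1 in ALP against MaSC. Spry4 in ALP against LP was -0.07515 with quantile normalisation, -0.1543 with median centring, -0.02003 from the next probe set and -0.4571 with array weights (adjusted p = 0.0367, over all alternatives 0.0367 to 0.993), and in ALP against MaSC -0.2917 with array weights. Spry1 in ALP against ML was -0.1505, -0.2897 and -0.2694 with quantile normalisation, median centring and array weights. With each array left out, Spry4 ran from -0.3258 to 0.03701 in MaSC against LP, from -0.1116 to 0.475 in ALP against MaSC and from -0.2915 to 0.2951 in ALP against LP, Spry1 from -0.3426 to 0.05834 in AL against MaSC and from -0.5418 to 0.6025 in ALP against ML, and Fgfr1 from -0.006642 to 0.1854 in ALP against MaSC.

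With replicate number as a block over all 15 arrays, the count changed for ALP against LP, from 1 to 0 (Fgfr2, adjusted p = 0.0525), and for no other comparison. With the block over the arrays of MaSC, LP and ML alone, MaSC against LP had 4 calls in place of 3, with Fgf7 gained (log2 -0.87, adjusted p = 0.0469), and MaSC against ML and LP against ML kept their counts. Same-numbered arrays of MaSC, LP and ML correlated at -0.0114 to 0.173 in their deviations from population means, above 0.1 in 1 of 9 pairs, so the numbers were not taken to pair the arrays. Values near the background of the arrays limit what can be said of Fgf2, Fgf10 and Fgf7.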
